A study of Vitis amurensis with 6 samples.

Results

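A set of 645 chromatin regions was described in leaves of Amur grape (Vitis amurensis). Each held sites called open in every library of cold-treated plants and in some, but not all, libraries of untreated plants. In ATAC-seq, DNA that is not shielded by nucleosomes is tagged by a transposase, and a stretch where the tagged fragments pile up is called a transposase hypersensitive site (THS). The cold group (3 libraries) came from leaves of wild-type, 1-month-old in vitro plants after 2 h at 4°C. The control group (3 libraries) came from leaves of plants of the same genotype and age that were sampled at 0 h from culture at 26°C under the same light. Each library came from pooled upper leaves of several plants, and whole leaves hold many cell types. Plants held at 26°C for the same 2 h were not sampled, and the effects of cold, transfer and elapsed time cannot be told apart.

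The regions were selected on the THS calls themselves. Merging every THS of the 6 lists with any THS it touched by 1 bp or more gave 44710 regions, of which 39746 lay on chromosomes 1 to 19. A region was kept if it lay on these chromosomes, was called in each of the 3 cold libraries and was called in exactly 1 or exactly 2 control libraries. This gave 645 regions, or 1.62% of the placed regions. Because presence in the 6 libraries chose the regions, their presence, scores and widths are given as a description and were not tested between the groups. With 3 libraries against 3, no single region could have reached an exact p below 0.1.

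Open chromatin in plants lies mainly where transcription factors and other proteins keep nucleosomes away from DNA, at promoters and at distal regulatory elements. In the cold, factors of the ICE1 and CBF cascade bind such elements and switch on protective genes within hours. A list of THSs records only whether enough fragments piled up to pass the threshold of the peak caller, so that a site absent from a list may still have been open below that threshold. The regions are named by their coordinates on the grape 12X assembly (counted from 1), because genes and sequence were not analysed here.

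The 645 regions lay between a large shared set and a small cold-only set. Of the 3557 placed regions with a THS in all 3 cold libraries, 2837 (79.8%) also had one in all 3 control libraries. Another 462 (13.0%) had one in 2 control libraries, 183 (5.14%) in 1 and 75 (2.11%) in none. The regions described here thus made up 18.1% of the sites held by every cold library. In the opposite direction, 1810 of the 5058 placed regions with a THS in all 3 control libraries (35.8%) had one in only 1 or 2 cold libraries. The number of such sites depended on how THSs were counted. It was 386 when only THSs with a score of at least 4.13 were used, 208 when a library had to cover at least 50% of the region and 179 when all lists were held to the same width and gap limit. Leaving out cold replicate 1, 2 or 3 gave 1324, 1001 and 1182 regions, and leaving out control replicate 3 gave 322. Requiring fewer libraries changes the rule itself.

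Control replicate 3 was the library most often without a THS. It had one in 216 of the 645 regions (33.5%, exact binomial 95% interval 29.9 to 37.3%), whereas control replicate 1 had one in 472 (73.2%, 69.6 to 76.6%) and control replicate 2 in 419 (65.0%, 61.1 to 68.6%). These intervals cover counting error only. Over all 3557 regions held by every cold library, the shares of control replicates 3, 1 and 2 were 85.8, 93 and 91.5%. Those regions are the selected ones, the always-open ones and the 75 cold-only ones, so that their shares follow from the counts above and are no separate background. The list of control replicate 3 was also the shortest, with 13019 THSs against 18770 and 19537 in control replicates 1 and 2. Cold replicates 1, 2 and 3 listed 13350, 15694 and 13942. With lists cut to equal length, the shares of control replicates 3, 1 and 2 were 37.9, 68.4 and 63.1%, in the same order. They were 47.6, 70.7 and 50.0% when a library had to cover 50% of the region. With windows of 200 bp around THS midpoints they were 45.7, 66.1 and 54.9%, and under the common width and gap limit 22.9, 72.6 and 83.2%. The cause of the difference was not tested.

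Among the 6 possible sets of control libraries, the pair of control replicates 1 and 2 was the most frequent, with 287 regions (44.5%). The pair of replicates 1 and 3 held 110 regions and the pair of replicates 2 and 3 held 65. Control replicate 1 was the only control with a THS in 75 regions, control replicate 2 in 67 and control replicate 3 in 41. The bar plot of control sets shows this order.

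**Figure D1:**
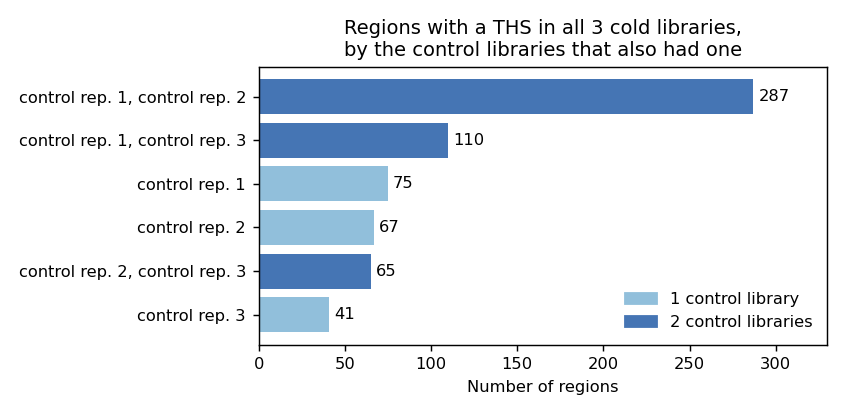
Number of regions (x axis) with a THS in all 3 cold libraries, for each set of control libraries that also had one (y axis). Dark bars are sets of 2 control libraries and light bars single ones; the pair of control replicates 1 and 2 held 287 of the 645 regions.

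Where a control library had a THS in these regions, it was a comparatively strong one. Scores (the −log10 of the q-value) were not scaled between libraries, so each THS was ranked by its percentile within its own list, with 100 as the strongest. Over all THSs of the selected regions, the median percentile was 63.7, 61.9 and 55.9 in cold replicates 1, 2 and 3, and 73.5, 73.8 and 68.8 in control replicates 1, 2 and 3. The 3 cold medians averaged 60.5 ± 4.10 and the control medians 72.1 ± 2.80 (SD, n = 3 each), a difference of -11.6 percentile points with no overlap between the groups. The sets of regions differ, however. Each cold median covers all 645 regions, and those of control replicates 1, 2 and 3 cover the 472, 419 and 216 with a THS there. A median over all THSs of a list on chromosomes 1 to 19 lay at 46.8 to 47.4 in cold and 47.2 to 48.0 in control libraries. The medians of the selected sites were thus above the middle of each list. The rule requires a THS in several lists, which bears on this order.

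The control lists also had the higher medians in always-open regions. In the 2837 regions open in all 6 libraries, the medians were 81.0, 74.6 and 70.6 in the cold libraries and 86.2, 87.7 and 80.5 in the control libraries. Region by region, control replicate 1 had a higher percentile than cold replicate 1 in 342 of 472 selected regions (72.5%), and in 83.1% of the always-open ones. For control replicate 2 against cold replicate 1 the shares were 79.2 and 88.6%. Control replicate 3 lay above cold replicate 1 in 55.6% of the 216 selected regions and in 47.0% of the always-open ones. Against cold replicates 2 and 3 the order of the classes was the opposite, with 54.2 and 65.7% in the selected regions and 59.7 and 68.9% in the always-open ones. With lists of equal length the difference between the group averages was -6.80 percentile points, without control replicate 2 it was -5.85, and under the common width and gap limit it was -22.1. Sites that were held by every control and by part of the cold libraries had cold medians of 44.9 to 54.8, against 52.8 to 66.2 in the control libraries. The control average was again the higher, at 49.0 ± 5.19 in cold and 60.3 ± 6.88 in control (SD, n = 3 each), but here the medians of the groups overlapped.

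Strength in cold was described by the number and by the set of control libraries that had a THS. As a measure of strength in cold, the lowest of the 3 cold percentiles of a region was used. Its median was 47.9 (quartiles 29.9 and 70.7) in the 462 regions with 2 controls and 38.4 (24.1 and 60.1) in the 183 regions with 1. Always-open regions had a median of 72.7 and the 75 cold-only regions one of 45.6. The set of control replicates 1 and 3 stood out, with a median of 66.4, against medians of 35.6 to 52.7 in the other 5 sets. It is the set that lacked control replicate 2 alone. Regions with control replicate 3 as the single control had a median of 52.7, above the pair of replicates 1 and 2 (47.4) and the pair of replicates 2 and 3 (41.2).

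THSs of the selected regions were narrower in each library than those of always-open regions. Over all THSs, the median width was 314, 207 and 191 bp in cold replicates 1, 2 and 3, and 373, 418 and 277 bp in control replicates 1, 2 and 3. In the always-open regions the cold medians were 517, 282 and 253 bp and the control medians 618, 628 and 502.5 bp. The selected regions averaged 237 ± 66.9 bp in cold and 356 ± 72.0 bp in control libraries (SD, n = 3 each), and the groups overlapped, since cold replicate 1 lay above control replicate 3. As with the percentiles, the control medians cover fewer regions than the cold ones. Over all regions on these chromosomes the medians were 336, 181 and 169 bp in cold replicates 1, 2 and 3, and 368, 380 and 344 bp in control replicates 1, 2 and 3, so that the narrow THSs of cold replicates 2 and 3 were a property of their whole lists. In cold replicate 1 and control replicate 3 the selected regions had narrower THSs than the list as a whole, and in the other 4 libraries wider ones. The dot plot of percentiles and widths shows both measures by library.

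**Figure D2:**
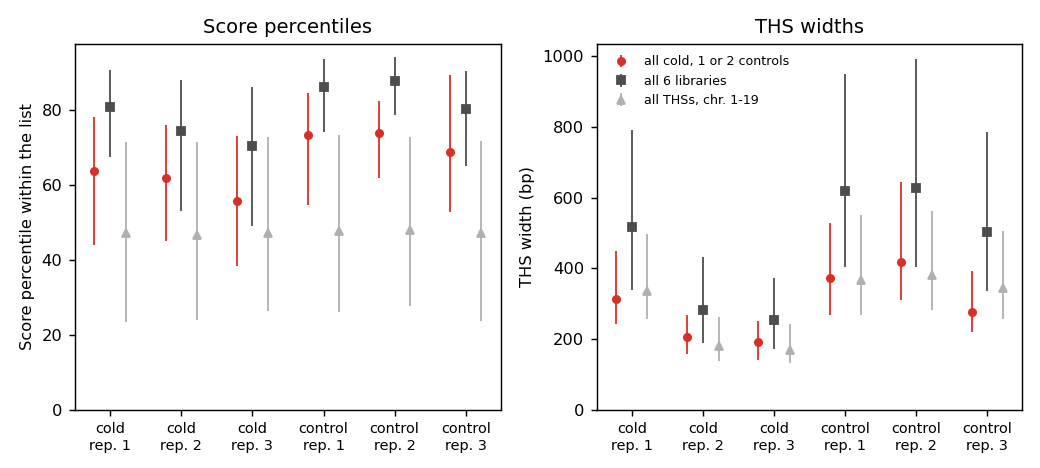
Score percentile within the list (left, y axis) and THS width in bp (right, y axis) in each cold and control library (x axis). Points are medians and lines run from the lower to the upper quartile, for THSs of the 645 selected regions, of the 2837 regions open in all 6 libraries and of all regions on chromosomes 1 to 19; the selected regions lie between the other classes in percentile.

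After merging, the selected regions spanned 205 to 2866 bp, with a median of 525 bp, against 819 bp in always-open and 320 bp in cold-only regions. A region merged from more THSs is wider by construction, which bears on this order. In most regions the THSs overlapped in a common core. All THSs of a region, cold and control, shared at least 1 base in 533 regions (82.6%), and this core had a median length of 145 bp. The 3 cold THSs shared a base in 561 regions. In the other 84 the cold THSs lay side by side or were linked in a chain, and in 34 regions they were joined only through a THS of a control library. Cold replicates 2 and 3 had more than 1 THS in 9.15 and 8.84% of the regions, whereas cold replicate 1 did so in 2.95% and control replicates 1, 2 and 3 in 4.03, 2.15 and 1.39%.

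Among the strongest of the selected sites, control replicate 2 was the control most often without a THS. In 677 placed regions every cold library had a THS at or above its 90th percentile, and 50 of them were selected regions. Of all 3557 placed regions with a THS in every cold library, 645 (18.1%) were selected ones, a larger share than among the 677. Among the 50 strong regions, 42 had no THS in control replicate 2 (84.0%), whereas 10 had none in control replicate 1 and 7 had none in control replicate 3. Among the other 595 regions the shares without a THS in control replicates 1, 2 and 3 were 27.4, 30.9 and 70.9%. The library most often missing thus differed between strong and weaker selected sites. By the rule each selected region lacks 1 or 2 controls, so these shares do not describe strong sites at large. Strong regions with a cold replicate 1 THS of 500 bp or more all had a THS in each control library. Control replicate 2 alone was missing in 33 of the 50, and control replicates 1 and 2 together in 8. The scores of the 50 ran up to 1723, 2004 and 1630 in cold replicates 1, 2 and 3, with medians of 84.4, 86.5 and 72.2. Control replicates 1, 2 and 3 had a THS in 40, 8 and 43 of the 50, with median scores of 96.0, 60.1 and 148. Their median percentiles within their own lists were 96.3, 95.7 and 95.9.

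Of the 50 strong sites, 42 had a THS under 250 bp in cold replicate 1, and 28 had one that was narrower than any THS on the list of a control library that lacked the site. The narrowest THS listed was 207, 217 and 199 bp in control replicates 1, 2 and 3, and 203, 111 and 106 bp in cold replicates 1, 2 and 3. Sites of 199 to 216 bp could therefore appear in control replicate 3 but not at that width in control replicate 2. The share of regions with a THS in control replicate 2 was lower under its limit than above it. Among all regions of the 3 cold libraries whose THS in cold replicate 1 was 207 to 216 bp wide (82 regions), control replicate 2 had a THS in 35.4%, and control replicates 1 and 3 in 69.5% each. At 203 to 206 bp (33 regions) the shares of control replicates 1, 2 and 3 were 75.8, 45.5 and 60.6%. Control replicate 1, whose narrowest THS was 207 bp, thus had no lower share under its own limit than just above it, over all these regions. At 217 to 249 bp (273 regions) the shares of control replicates 1, 2 and 3 were 81.3, 78.0 and 72.9%, and at 700 bp and more they were 98.9, 99.4 and 96.8%.

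In strong sites the shares of control replicate 2 differed more across its limit. Restricted to regions at or above the 90th percentile in each cold library, 28 had a cold replicate 1 THS of 207 to 216 bp. Of these, 3 (10.7%) had a THS in control replicate 2, 22 (78.6%) in control replicate 1 and 26 (92.9%) in control replicate 3. Another 5 such regions of 203 to 206 bp had none in control replicates 1 and 2, and 4 of the 5 had one in control replicate 3. In strong sites control replicate 1 thus also had a lower share under its own limit than just above it, though over only 5 regions. At 217 to 249 bp control replicate 2 held 67 of 79 (84.8%), and from 250 bp upwards each control library held at least 97.3% of the strong regions. Whether such narrow sites were closed in control replicate 2 or merely not listed was not tested. When regions with a cold replicate 1 THS under 250 bp were left out (chosen after the data were seen), 470 regions were kept, and 73.6% of them had a THS in control replicate 2.

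**Figure D3:**
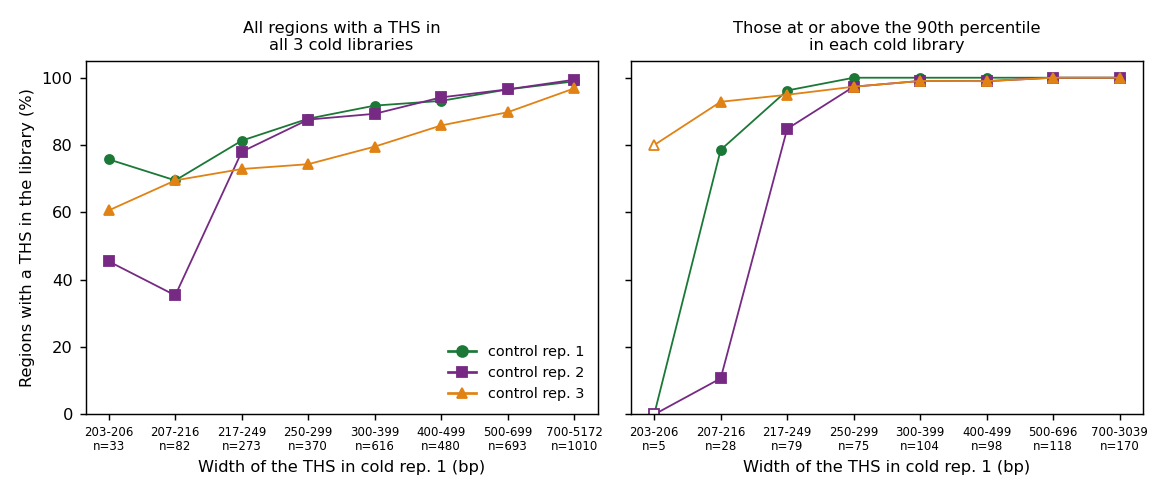
Percentage of regions with a THS in each control library (y axis) by the width of the THS in cold replicate 1 (x axis, bp, with the number of regions), for all regions with a THS in all 3 cold libraries (left) and for those at or above the 90th percentile in each (right). Open symbols stand for fewer than 20 regions; control replicate 2 falls to 10.7% at 207 to 216 bp in the right panel, while control replicate 3 is at 92.9%.

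**Figure D4:**
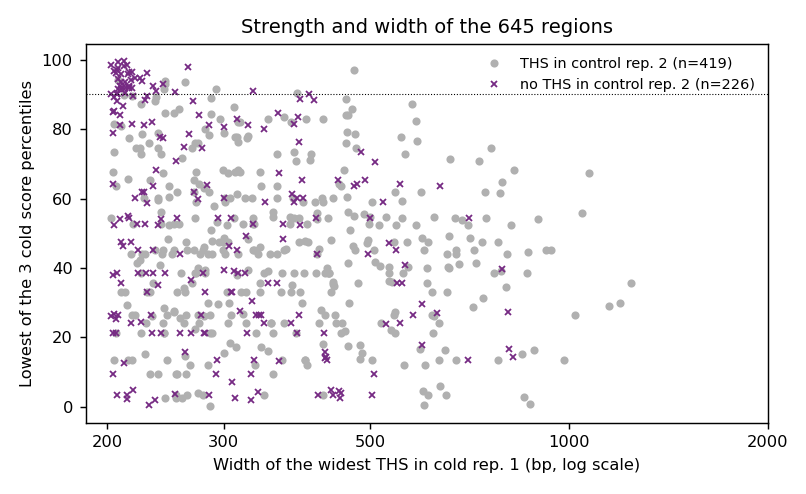
Lowest of the 3 cold score percentiles (y axis) against the width of the widest THS in cold replicate 1 (x axis, bp, log scale) for the 645 regions, split by whether control replicate 2 had a THS. The dotted line is the 90th percentile; most crosses above it, which are regions without a THS in control replicate 2, lie under 250 bp.

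In 23 of the 645 regions all THSs had nearly the same width, within 10 bp of each other, including those of cold replicates 2 and 3. These 23 regions were 205 to 298 bp wide (median 212 bp), their lowest cold percentile had a median of 93.6, and 22 of them lacked control replicate 2. In the other regions that percentile had a median of 45.2. Among the always-open regions 123 of 2837 were of even width (4.34%, against 3.57%), and these were 220 bp or wider. There the rule spans all 6 lists, and in the selected regions fewer, so the shares are not at equal stringency. An always-open region also needs a THS in control replicate 2, which listed none under 217 bp. The class of even width was singled out after its values were seen.

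The 3 highest-ranked regions with 2 control libraries were of this kind. At chr9:5950894-5951105, the first of them, scores were 1723, 1969 and 1625 in cold replicates 1, 2 and 3, and 1848 and 2056 in control replicates 1 and 3. Its THS was 212 bp wide in each of the 5 lists, and the nearest THS of control replicate 2 lay 5181 bp away. The second, chr16:4452790-4452998, had scores of 1564, 2004 and 1630 in cold and 1852 and 1901 in control replicates 1 and 3, at widths of 208 and 209 bp. Both sites had percentiles above 99 wherever they were listed. The third, chr11:29118-29333, lay close to the start of its chromosome, with scores of 606, 731 and 641 in cold and 742 and 855 in control replicates 1 and 3.

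The next 4 regions of this class also lacked control replicate 2. They were chr6:4345663-4345885, chr13:13618124-13618388, chr3:8082191-8082421 and chr7:9422767-9422984, and their scores ran from 229.5 to 503 in the cold libraries and from 219 to 467 in control replicates 1 and 3. These 4 regions were 218 to 265 bp wide, so that each region as a whole exceeded the 217 bp limit of control replicate 2, although in 3 of them the THS of cold replicate 1, at 207 to 212 bp, did not. In chr13:13618124-13618388 the THS of cold replicate 1 was 265 bp wide, and the nearest THS of control replicate 2 was 4888 bp away. The eighth, chr9:14484057-14484956, was of another kind. It spanned 900 bp, with scores of 168, 296 and 265 in cold and 204 and 195 in control replicates 1 and 2, and lacked control replicate 3, whose nearest THS was 3782 bp away.

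Among regions with a single control library, control replicate 3 was that library in 7 of the 8 strongest. The first was chr11:7940367-7940571, with scores of 606, 734 and 617 in cold and 691 in control replicate 3, and THSs of 203 to 205 bp. It was followed by chr1:7230766-7230971 (191, 178 and 170 in cold, 197 in control replicate 3) and chr6:12237229-12237444 (135, 154 and 151 in cold, 170 in control replicate 3). In the first site the control score lay within the range of the cold scores, and in the other 2 it was above them. The region chr14:13593419-13593625 had scores of 122, 126 and 121 in cold and 138 in control replicate 3. At chr11:11176118-11176332 the cold scores were 80.5, 71.5 and 51.9 and the control score 86.3.

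The other 3 lay close to THSs of the libraries that lacked them. At chr18:9831339-9831567 the cold scores were 63.9, 69.9 and 46.4 and that of control replicate 3 was 90.2, and the missing libraries, control replicates 1 and 2, had THSs within 544 bp. At chr12:7214698-7214911 the cold scores were 58.0, 51.1 and 39.3 and that of control replicate 3 was 68.8, with both missing libraries within 525 bp. The region chr17:13079836-13080079 was the exception, with cold scores of 31.3, 41.0 and 51.1 and a score of 42.8 in control replicate 1, and both missing libraries had a THS within 241 bp.

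Most regions lay more than 1 kb from any THS of the control libraries that lacked them. The distance from a region to the nearest THS of a missing control had a median of 5467 bp (quartiles 1523 and 15110 bp). In 219 regions (34.0%) it was over 10 kb, and in 120 (18.6%) it was at most 1 kb. Such distances were not computed for other positions, so whether they are long or short for these lists was not tested. In 96 regions every missing control had a THS within 1 kb. There a THS was listed beside the region but did not touch it. The closest were chr16:1967556-1968447 at 14 bp from a THS of a missing control, chr15:5441763-5442340 at 25 bp and chr16:1438085-1439036 at 47 bp, with cold scores between 2.67 and 7.17.

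At the other end, 5 regions lay 187120 to 204655 bp from any THS of the missing control. The region chr18:3550652-3551676 had modest scores of 4.45, 3.52 and 3.17 in cold and 3.52 and 3.72 in control replicates 2 and 3, and lay 204655 bp from the nearest THS of control replicate 1. The neighbours on chromosome 8, chr8:16534594-16535262 and chr8:16536856-16537564, had cold scores of 7.87, 13.5 and 9.08 and of 5.09, 4.14 and 6.37. Their scores were 11.6 and 8.05, and 4.13 and 7.42, in control replicates 1 and 2. Both fell into a stretch of 517940 bp without any THS of control replicate 3, in which cold replicates 1, 2 and 3 listed 2, 13 and 11 THSs and control replicates 1 and 2 listed 5 and 6. All of the other 5 libraries thus had THSs in the stretch.

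A like pair lay on chromosome 15. The regions chr15:19811046-19811555 and chr15:19811967-19812578 had cold scores of 5.09, 11.6 and 11.7 and of 3.85, 11.9 and 6.82, and control scores of 5.30 and 8.70 and of 4.13 and 9.36 in replicates 1 and 2. They lay in 380298 bp without a THS of control replicate 3, where cold replicates 1, 2 and 3 listed 7, 11 and 11 and control replicates 1 and 2 listed 3 and 11. In these 4 neighbouring sites control replicates 1 and 2 had scores within or close to the range of the cold libraries.

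The weakest regions passed the threshold by little. The lowest best score of a region was 1.38, 1.43 and 1.37 in cold replicates 1, 2 and 3 and 1.60, 1.84 and 1.68 in control replicates 1, 2 and 3, little above the calling threshold of a q-value of 0.05. At chr1:2048594-2049410 the scores were 6.43, 1.43 and 2.88 in cold and 3.52 and 2.13 in control replicates 2 and 3. At chr18:24464038-24464701 they were 4.04, 1.51 and 5.15 in cold and 9.81 and 5.07 in control replicates 1 and 2, and at chr2:8972278-8972917 they were 1.78, 1.52 and 1.91 in cold and 4.36 in control replicate 3. Just outside the rule stood regions in which the last control passed as narrowly. The always-open region chr3:11815815-11816997 had a score of 1.38 in control replicate 3, chr6:12974600-12975126 one of 1.64 in control replicate 2 and chr12:21308160-21309521 one of 1.71 in control replicate 3.

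The regions were spread over all 19 chromosomes. Their number ran from 17 on chromosome 6 to 60 on chromosome 18, with a median of 30. Chromosome 15 had the highest density, 2.56 per Mb up to its last THS, and chromosome 6 the lowest, 0.791 per Mb, around 1.51 per Mb over all chromosomes. Chromosome 9, the richest in always-open regions at 10.0 per Mb, had 2.04 of the selected regions per Mb, while chromosome 15 had 8.42 always-open regions per Mb. As a share of the regions held by all cold libraries, they made up 14.3% on chromosome 6 (exact binomial 95% interval 8.55 to 21.9%) and 24.4% on chromosome 8 (17.1 to 33.0%), the lowest and highest values. The intervals of both chromosomes include the overall share of 18.1%.

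**Figure D5:**
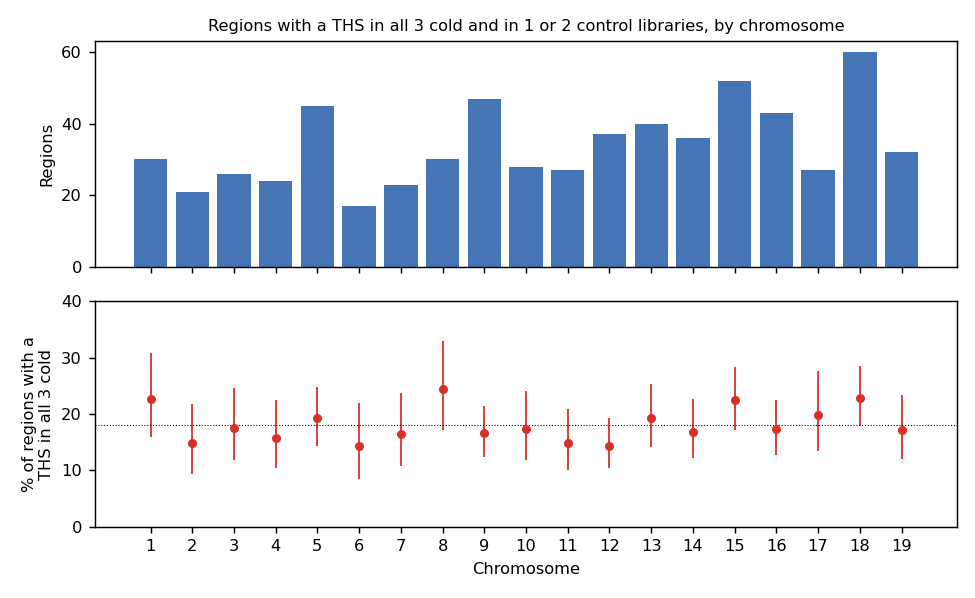
Number of regions with a THS in all 3 cold and in 1 or 2 control libraries on each chromosome (top, y axis), and their percentage among regions with a THS in all 3 cold libraries (bottom, y axis). Points are shares with exact binomial 95% intervals and the dotted line is the overall 18.1%; shares run from 14.3% on chromosome 6 to 24.4% on chromosome 8.

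Along the chromosomes, 39.1% of the selected regions lay in the middle 40% of the span covered by THSs, against 43.5% of always-open and 43.8% of all placed regions. The median distance to the nearest always-open region was 35812 bp, and 7.75% lay within 1 kb of one. For sites held by every control and part of the cold libraries the values were 33431 bp and 5.69%, and always-open regions lay 21699 bp from the next of their kind. The median gap from a selected region to the nearest other one was 167330 bp, and 76 (11.8%) had another within 10 kb. Whether such gaps are long or short for this number of regions was not tested.

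The densest groups within 100 kb held 4, 4 and 3 regions. The first spanned chr16:1881408-1968447 and the second, within 26987 bp, chr16:7893927-7920913. In the second, 3 regions had THSs in control replicates 1 and 2 and the last in control replicate 1 only, so that none had one in control replicate 3. That last region, chr16:7920511-7920913, had scores of 11.6, 52.5 and 43.8 in cold and 29.8 in control replicate 1. The region chr16:7901617-7902165 had scores of 2.23, 12.5 and 13.1 in cold and 11.6 and 13.6 in control replicates 1 and 2, so that cold replicate 1 was the lowest of the 5 libraries. Over the span of the second group control replicate 3 listed 2 THSs, against 7, 9 and 9 in cold replicates 1, 2 and 3 and 7 and 6 in control replicates 1 and 2. The third group, chr5:19483939-19553958, held regions of 2 different control sets. Of the 40 pairs of neighbouring regions within 10 kb, 14 (35.0%) had the same set of control libraries, against 27.6% of all 626 neighbouring pairs.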

How the data were processed

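The deposited files are one THS list per library for 3 cold and 3 control libraries, each with start, end and a score. According to the methods and the submitters' processing notes, the authors checked reads (FastQC), trimmed them (Cutadapt), aligned them by BWA against grape 12X, removed duplicates and reads without a unique position and called THSs per library with MACS2 (q of 0.05, extension of 200 bp). The authors' tool versions are not given. In cold replicates 2 and 3 the median THS was 184 and 171 bp wide, under the stated extension. The narrowest THS ran from 106 bp in cold replicate 3 to 217 bp in control replicate 2. Whether all lists were called with the same settings was not tested. The deposited score was read from its values as the −log10 of the q-value. The lists hold no read counts, so the read count test of the methods could not be run and read depth was not used here. Merging, the selection rule, percentiles and exact binomial intervals were computed with Python 3.11.15, numpy 2.4.6, pandas 2.3.3 and scipy 1.17.1, plots with matplotlib 3.10.9. Merging was checked against bedtools 2.31.1, and the rule was tested on simulated data. Percentiles count THSs of a list with a score at or below the given one. Medians by library were taken over all THSs. For values of single regions and comparisons region by region, the strongest score and widest THS of a library were used.

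Named regions were, for 1 and for 2 controls, the 8 with the highest lowest cold percentile, the 5 farthest from a missing control, the 3 weakest, the 3 closest to a missing control and the 3 closest groups within 100 kb. Regions and lists were chosen with earlier results of these data known. Genes and sequence features were not analysed here, since no genome was used.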

Additional observations from a re-analysis of the deposited data

How the results depend on the processing

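Across 15 other settings, 125 values were recomputed, of which 71 stayed near the main value and 54 moved. A count stayed if it was within 1.5 times, and a share if it was within the exact binomial 95% interval over regions. A difference stayed if it shifted by less than the larger SD of the library medians of a group. Only the differences in percentile and in width have a direction, and neither changed it. No paired analysis was possible because the results come from no test between groups. Leaving out narrow sites and using cold replicate 1 alone were chosen after the data were seen. The number of regions (645) was 386 when scores had to reach 4.13, 208 when a library had to cover 50% of a region, 179 under 1 common limit of 217 bp and 3597 with cold replicate 1 as the sole cold library. Regions with a common base (533) numbered 208 with 50% covered, 149 under the common limit and 3365 with cold replicate 1 alone. Regions with every missing control within 1 kb (96) numbered 51, 52, 25 and 466 under these 4 settings and 329 with windows of 200 bp. The share with a THS in control replicate 1 (73.2%) was 68.4% with equal lists, 66.1% with windows and 59.7% with cold replicate 1 alone. For control replicate 2 (65.0%) it was 50.0% with 50% covered, 54.9% with windows, 83.2% under the common limit, 73.6% without narrow sites and 59.9% with cold replicate 1 alone. For control replicate 3 (33.5%) it was 37.9% with equal lists, 47.6% with 50% covered, 45.7% with windows, 22.9% under the common limit, 26.4% without narrow sites and 29.6% with cold replicate 1 alone. The difference in percentile (-11.6) was -6.80 with equal lists, -22.1 under the common limit and -6.93 with cold replicate 1 alone, and the difference in median width (-118.7 bp) was -43.3 bp with 50% covered. Without 1 library, the number of regions was 322 to 1324, those with a common base 271 to 1169, those near every missing control 70 to 192, the shares 57.8 to 76.8%, 42.2 to 70.0% and 23.2 to 32.7% for control replicates 1, 2 and 3, and the differences -13.7 to -5.85 in percentile and -148 to -96.8 bp in width. Control replicate 2 was missing from 76.7 to 95.2% of the strongest regions under the settings that kept narrow sites and for which it was computed, and from 50.0% of the 8 kept without narrow sites. The strongest regions were counted anew under each setting, with 0 under the common limit against 50 in the main setting. How many of those 50 stayed selected under the common limit was not tested. The causes were not tested. The density per Mb was not recomputed with chromosome lengths, because no genome was used.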
